A study of Mus musculus with 29 samples.

Results

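The insulin-like growth factor (IGF) system was followed as 10 genes taken by symbol: the ligands Igf1 and Igf2, the receptors Igf1r and Igf2r, and the binding proteins Igfbp2, Igfbp3, Igfbp4, Igfbp5, Igfbp6 and Igfbp7. They are 10 of the 24411 genes listed in a time course of mouse digits and 10 of the 55487 listed in a second experiment on amputation. All 10 passed the filter on low counts in both. IGF1 and IGF2 are secreted peptides that promote survival, growth and division through the tyrosine kinase receptor IGF1R, while IGF2R carries IGF2 to lysosomes for degradation. The binding proteins hold the ligands outside the cell, block or prolong their action, and release them when proteases such as PAPP-A cut the binding protein. In bone, IGF1 is stored in the matrix, IGFBP4 is mostly known as an inhibitor and IGFBP5 is abundant, and the mouse digit tip regrows its bone after amputation through the last phalanx.

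Poly(A) RNA was measured in 29 libraries, in 10 groups, of tissue beyond the joint at the base of the digit, in the left hindlimb, with the nail taken off. In the time course, mice had spared nerve injury (SNI, in which 2 branches of the sciatic nerve, the common peroneal and the tibial, are cut) or a sham operation, and the digit was amputated through the third phalanx 5 days later. Collection was at days 7, 14 and 21 after amputation, with 3 libraries per group except for sham at day 21 (n = 2). The second experiment held SNI digits only, amputated (n = 3 at day 7 and n = 3 at day 14) or unamputated (n = 3 at day 7 and n = 3 at day 14), so it has no group with intact nerves. The treatment labels of the unamputated groups state that there was no amputation and were followed, although other labels of theirs speak of a regenerate and of time since amputation. Spared nerve injury leaves the sural branch, and how much nerve supply the collected digits kept was not measured here. The labels call the libraries biological replicates and give no strain, sex or age.

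The promoters of Igfbp4 and Igfbp2 are printed because these were the 2 genes of the family whose level changed with amputation. They are RefSeq sequences of GRCm38.p6, from 250 bases before to 50 bases after the annotated start, on the plus strand. All 10 genes had at least 1 promoter in the RefSeq table, and for Igfbp2 1 of 2 is shown. Igfbp4 lies at chr11:99040994-99041293 and Igfbp2 at chr1:72824230-72824529, where its neighbour is Igfbp5. Capitals mark TATAAA in Igfbp4 and GGGCGG in Igfbp2.
Igfbp4: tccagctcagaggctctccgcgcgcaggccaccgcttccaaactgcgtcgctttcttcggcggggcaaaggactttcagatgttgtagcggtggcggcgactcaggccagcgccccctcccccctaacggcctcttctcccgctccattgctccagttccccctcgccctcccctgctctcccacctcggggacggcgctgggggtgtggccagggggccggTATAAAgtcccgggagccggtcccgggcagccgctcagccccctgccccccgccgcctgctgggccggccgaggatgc
Igfbp2: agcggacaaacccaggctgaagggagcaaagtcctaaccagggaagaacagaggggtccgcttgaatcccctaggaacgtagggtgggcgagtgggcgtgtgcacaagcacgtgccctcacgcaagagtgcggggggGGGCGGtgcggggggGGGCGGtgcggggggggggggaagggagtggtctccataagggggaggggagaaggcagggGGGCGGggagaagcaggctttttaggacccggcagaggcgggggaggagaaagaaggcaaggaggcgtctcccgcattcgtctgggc
The Igfbp4 window is 71.3% G and C and the Igfbp2 window 67.0%, against a median of 52.7% over 32851 promoters. A TATA box (spelled TATAAA) was found in 13.6% of all promoters, a CCAAT box (spelled CCAAT) in 37.4% and a GC box (spelled GGGCGG) in 35.7%, with both strands searched and no overlap between the motifs. Igfbp4 had 1 TATAAA at position 223 of the window and Igfbp6 was the other gene of the family with one. The Igfbp2 window shown had 3 GGGCGG, the first at position 138, and its other promoter had 0. These matches describe letters in the window and show no binding.

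The amputation libraries held 31274245 to 43315729 counts and those of the time course 35654192 to 56809440. Values below are in CPM, counts scaled to a common library size after the TMM factor of edgeR for library composition. Sham day 21 replicate 1 (factor 0.633) and SNI day 7 replicate 2 (0.761) stood apart in the time course, and no amputation library had a factor under 0.954. The common biological coefficient of variation was 0.393 in the time course and 0.17 in the amputation experiment. Keratinocyte, fibroblast, endothelial and bone marker genes were all present, and none of these was at 0 in any group, while skeletal muscle markers summed to at most 10.6 CPM and 1 of them, Myh4, was at 0 in SNI digits at day 7. In such bulk tissue, fewer cells of a type and less RNA per cell cannot be told apart.

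Per kilobase of transcript, the binding proteins stood far above the ligands and receptors. This scale divides by the longest coding transcript and gives only a rough comparison between genes. In the amputation libraries the median was 139 CPM per kb for Igfbp7 and 139 for Igfbp2, then 97.3 for Igfbp5, 75.5 for Igfbp4, 70.2 for Igfbp6 and 43.6 for Igfbp3. Igf2r had 8.85, Igf2 8.04, Igf1r 5.11 and Igf1 4.40 CPM per kb. The lowest Igfbp3 library (34.9) was above the highest Igf2 library (10.9), so on this scale both classes were separate in every amputation library. The separation depends on the division by length. In undivided CPM Igfbp6 (49.0 to 92.9) overlapped Igf1r (47.9 to 68.0) and Igf2r (53.8 to 83.8). Among the binding proteins the ranges of neighbours in this order overlapped, for example 51.0 to 137 for Igfbp4 and 68.7 to 167 for Igfbp5. In the time course Igfbp7 (median 206 CPM per kb) and Igfbp2 (169) again had the highest medians and Igf1r (2.65) the lowest. The receptors were the steadiest genes of the amputation libraries, with a coefficient of variation of 8.35% for Igf1r and 10.5% for Igf2r. In the time course the same receptors varied by 53.4% and 57.1%, and Igfbp5 spanned 15-fold from its lowest to its highest library against 2.43-fold in the amputation libraries. The tables were scaled apart, so no level was tested between them.

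The amputation experiment asks which genes differ in nerve-injured digits once the tip has been removed. Averaged over days 7 and 14, 2 of the 10 genes changed: Igfbp4 rose 1.56-fold and Igfbp2 fell 1.28-fold. Tests were edgeR's quasi-likelihood fit with Benjamini-Hochberg adjustment over 17475 genes, called at an adjusted p under 0.05. In that contrast 11.8% of all genes were called, 5.71% higher and 6.08% lower, so 2 of 10 is close to the background. The median log2 fold change was 0.08 for the 10 genes and 0.01 for all genes.

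**Figure D1:**
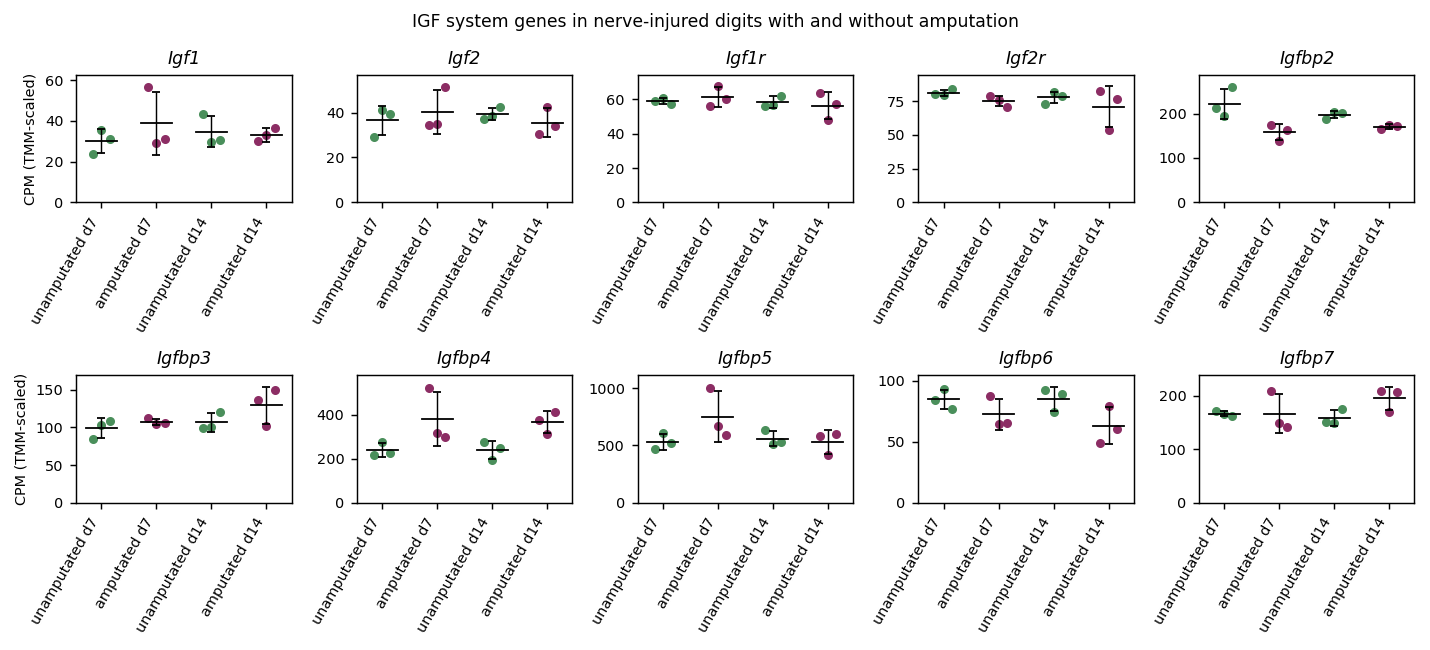
TMM-scaled CPM of each gene in the 12 amputation libraries. Points are libraries, horizontal lines means and bars SD (n = 3 per group). Igfbp4 is above and Igfbp2 below every unamputated library of the same day, while Igf1, Igf2 and Igf1r overlap between groups.

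Of the ligands, Igf1 was at 23.9, 35.4 and 31.1 CPM in unamputated digits and 56.5, 29.0 and 31.0 CPM in amputated digits at day 7. At day 14 it was at 43.4, 29.8 and 30.8 CPM without amputation and 29.9, 32.9 and 36.4 CPM with it. Apart from the 1 high amputated library at day 7, the groups covered the same range. The averaged log2 fold change of Igf1 was 0.15 (95% interval -0.24 to 0.53, edgeR adjusted p = 0.61). Igf2, the fetal ligand that stays expressed in some adult tissues, was at 29.0, 41.3 and 39.3 CPM without and 34.7, 34.7 and 51.6 CPM with amputation at day 7. At day 14 Igf2 was at 37.3, 38.6 and 42.4 CPM without and 30.3, 42.5 and 33.9 CPM with amputation. Its averaged log2 fold change was -0.003 (95% interval -0.28 to 0.27, adjusted p = 0.99), and the groups overlapped on both days.

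The signalling receptor Igf1r stayed within 47.9 to 68.0 CPM in all 12 libraries. Its averaged log2 fold change was 0.004 (95% interval -0.15 to 0.16, adjusted p = 0.98), the narrowest interval of the family. The lysosomal receptor Igf2r was at 80.4, 79.7 and 83.8 CPM in unamputated and 78.7, 75.9 and 70.7 CPM in amputated digits at day 7. Its groups did not overlap at day 7 but did at day 14, when amputated digits had 82.7, 53.8 and 76.3 CPM and unamputated ones 73.0, 81.5 and 78.7 CPM. The averaged log2 fold change of Igf2r was -0.12 (95% interval -0.31 to 0.07, adjusted p = 0.372).

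Igfbp4, a binding protein that PAPP-A cleaves, was at 215.6, 274.7 and 224.5 CPM in unamputated and 523.5, 318.1 and 300.2 CPM in amputated digits at day 7. At day 14 it was at 278.0, 195.5 and 250.8 CPM without and 376.2, 313.8 and 412.6 CPM with amputation. All 6 amputated libraries were above all 6 unamputated ones. The average over days was 0.64 ± 0.15 (SE) as a log2 fold change (edgeR adjusted p = 0.0221). The change was 0.68 ± 0.21 (SE) at day 7 (adjusted p = 0.16) and 0.61 ± 0.21 at day 14 (adjusted p = 0.111), so neither day passed alone. The call was lost without unamputated day 7 replicate 1 (adjusted p = 0.063), without the filter on low counts (0.0657) and with a covariate for transcript length described below (log2 fold change 0.58, adjusted p = 0.24).

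Igfbp2 was at 211.3, 194.0 and 260.3 CPM in unamputated and 173.1, 137.9 and 161.8 CPM in amputated digits at day 7. At day 14 it was at 187.9, 204.4 and 201.0 CPM without and 164.6, 174.6 and 171.9 CPM with amputation. Again no libraries overlapped within or across days, with the lowest unamputated library above the highest amputated one. The averaged log2 fold change was -0.35 ± 0.08 (SE, edgeR adjusted p = 0.0152), and each of 12 fits that lacked 1 library called it (adjusted p from 0.0144 to 0.0393). At day 7 the change was -0.49 ± 0.11 (adjusted p = 0.0448), and at day 14 it was -0.22 ± 0.11 (adjusted p = 0.241). The day 7 call is near the threshold: it was lost in 10 of 12 fits that each lacked 1 library (adjusted p from 0.0547 to 0.135).

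The other binding proteins were not called in the average. Igfbp6, which prefers IGF2, was at 83.8, 92.9 and 77.0 CPM in unamputated and 87.0, 64.8 and 65.3 CPM in amputated digits at day 7. At day 14 Igfbp6 was at 92.2, 74.0 and 88.6 CPM without and 49.0, 79.0 and 60.7 CPM with amputation. Groups overlapped on both days, and the averaged log2 fold change of -0.33 ± 0.12 (SE) had an adjusted p of 0.0871. It passed without amputated day 14 replicate 2 (adjusted p = 0.0317), by DESeq2 (0.037) and with the length covariate (0.046). Igfbp3, the main carrier of IGFs in blood, was at 99.2 CPM ± 12.9 (SD, n = 3) in unamputated and 107.7 ± 3.96 in amputated digits at day 7, and at 106.7 ± 12.2 and 129.5 ± 24.4 at day 14. Its averaged log2 fold change was 0.20 (95% interval -0.01 to 0.41, adjusted p = 0.181). Igfbp7, a secreted protein that binds IGFs only weakly, was at 165.9 CPM ± 4.31 (SD, n = 3) and 166.4 ± 36.5 at day 7 and at 158.1 ± 14.6 and 194.6 ± 22.1 at day 14, in unamputated and amputated digits in that order. Its averaged log2 fold change was 0.15 (95% interval -0.05 to 0.36, adjusted p = 0.303).

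Igfbp5 was at 465.8, 606.8 and 519.9 CPM in unamputated and 1003, 664.8 and 586.6 CPM in amputated digits at day 7. At day 14 it was at 637.0, 514.1 and 527.9 CPM without and 582.2, 412.5 and 602.6 CPM with amputation. The highest value by far was amputated day 7 replicate 1. Its log2 fold change was 0.50 ± 0.20 (SE) at day 7 (adjusted p = 0.266) and -0.07 ± 0.20 at day 14 (adjusted p = 0.859).

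As a share of the summed per kilobase level of the 6 binding proteins, Igfbp4 took 10.8% ± 1.28 (SD, n = 3) in unamputated and 16.5% ± 1.87 in amputated digits at day 7. At day 14 its share was 11.2% ± 1.49 and 16.3% ± 0.983. The share of Igfbp2 was 29.5% ± 4.08 and 20.6% ± 2.90 at day 7 and 27.1% ± 2.40 and 22.3% ± 2.17 at day 14. The shares of either gene did not overlap between unamputated and amputated digits on either day. Shares depend on one another, so a larger share of 1 gene lowers the others.

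Within single days 1 of 10 genes was called at day 7 (Igfbp2), where 1.35% of all genes were, and 0 of 10 at day 14, where 2.75% were. At day 14, 3 of the 10 genes had an unadjusted p under 0.05 by edgeR, against 4197 of all 17475 genes. DESeq2 called 1 of the 10 at that day, Igfbp4 (adjusted p = 0.0337), and the share of all genes it called there is not given. At day 7, 3 genes had libraries with no overlap (Igfbp2, Igfbp4 and Igf2r) against 19.2% of all genes, and at day 14 there were 2 (Igfbp2 and Igfbp4) against 32.6%. The change with amputation did not differ between days for any of the 10 by edgeR (0 called, smallest adjusted p 0.784, 0 with an unadjusted p under 0.05, 0 by DESeq2), and 0% of all genes were called in that test (1092 had an unadjusted p under 0.05 and DESeq2 called 18). From day 7 to day 14, 0 of 10 genes were called by edgeR in amputated digits, where 0.607% of all genes were, and 0 of 10 in unamputated digits, where 0.303% were. DESeq2 also called 0 of 10 in both. The smallest adjusted p of these changes was 0.33, for Igfbp5, whose log2 change in amputated digits was -0.50 ± 0.20 (SE), the 1 gene with an unadjusted p under 0.05 in amputated digits against 0 in unamputated ones. Over all 17475 genes, 2327 in amputated and 869 in unamputated digits had an unadjusted p under 0.05.

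**Figure D2:**
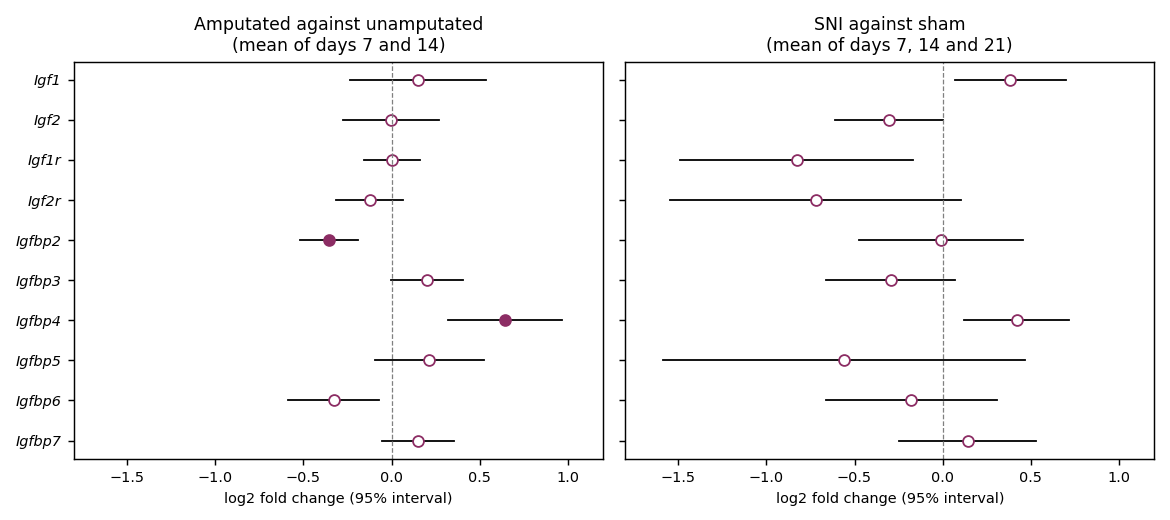
Log2 fold change of the 10 genes with 95% intervals, for amputation (left, averaged over days 7 and 14) and SNI (right, averaged over days 7, 14 and 21). Filled points have an edgeR adjusted p under 0.05. Igfbp4 (0.64) and Igfbp2 (-0.35) are filled on the left and none is on the right, where most intervals are wider.

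The other genes of the IGF system were a list of 37, of which 35 passed the filter (Igfbp1 and Igfbpl1 did not). In the averaged amputation contrast 4 of the 35 rose and 0 fell, which is 11.4% of them against 11.8% of all genes, with a median log2 fold change of 0.06. Stc2 codes for stanniocalcin-2, a secreted inhibitor of PAPP-A. It was at 3.85, 5.34 and 3.84 CPM in unamputated and 10.8, 14.0 and 8.61 CPM in amputated digits at day 7, and at 3.20, 4.66 and 4.40 CPM and 9.23, 10.2 and 11.1 CPM at day 14. Every amputated library was above every unamputated one. The averaged log2 fold change of Stc2 was 1.34 ± 0.15 (SE), a 2.52-fold rise with an adjusted p of 0.000514. It was called on both days (adjusted p = 0.00873 and 0.0134), and its average passed in each of 12 fits that lacked 1 library (adjusted p from 0.000284 to 0.00259) and with the length covariate (0.0129). At day 14 alone the call was lost without amputated replicate 3, unamputated replicate 1 or unamputated replicate 3 (adjusted p from 0.0539 to 0.0601) and with the covariate (0.181), and at day 7 with only the compared groups in the fit (0.0584). Of the list, 1 gene was called at day 7, 2 at day 14, and 0 of 35 in any time course contrast by edgeR.

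**Figure D3:**
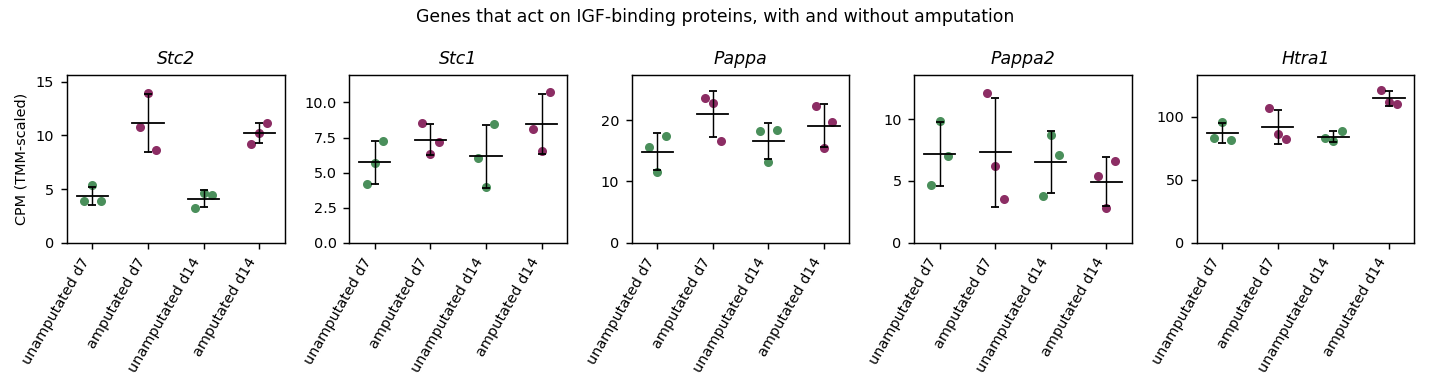
TMM-scaled CPM of genes that act on IGF-binding proteins in the 12 amputation libraries, with points for libraries, lines for means and bars for SD (n = 3 per group). Stc2 lies between 8.61 and 14.0 CPM in amputated and between 3.20 and 5.34 CPM in unamputated digits, while Pappa and Pappa2 overlap between groups on both days.

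The proteases themselves moved less. Pappa, which codes for PAPP-A, had an averaged log2 fold change of 0.35 ± 0.14 (SE, adjusted p = 0.112), and its relative Pappa2 one of -0.18 ± 0.34 (adjusted p = 0.754). Stc1, the other stanniocalcin, had 0.41 ± 0.20 (adjusted p = 0.189). Htra1, a secreted serine protease that cuts binding proteins, rose by 0.26 ± 0.07 on the log2 scale (adjusted p = 0.0345). Its level at day 14 was 83.1, 80.8 and 88.9 CPM without and 121.5, 111.5 and 110.5 CPM with amputation (log2 fold change 0.44, adjusted p = 0.042). At day 7 its log2 fold change was 0.08 (adjusted p = 0.749), and the test of a difference between days did not pass (unadjusted p = 0.0252, adjusted p = 0.772).

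Grb14, an adaptor that inhibits the insulin receptor, rose 1.49-fold (log2 fold change 0.58 ± 0.13 SE, adjusted p = 0.0188), from 2.04 to 2.63 CPM in the 6 unamputated libraries to 3.01 to 4.06 CPM in the 6 amputated ones. Akt2, a kinase downstream of the receptors, rose 1.14-fold (log2 fold change 0.18 ± 0.05 SE, adjusted p = 0.038), from 126.9 to 131.7 CPM to 139.0 to 167.5 CPM. The calls of Htra1, Grb14 and Akt2 were lost with the length covariate (adjusted p = 0.262, 0.177 and 0.394) and without 1 library or another, unamputated day 7 replicate 1 being 1 of them for each (0.0875, 0.053 and 0.0897). Ghr, the growth hormone receptor, had a log2 fold change of 0.22 ± 0.07 (SE, adjusted p = 0.0754), and H19, the imprinted noncoding neighbour of Igf2, one of -0.32 ± 0.17 (adjusted p = 0.218).

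Markers of several cell types were called in the same contrast, in which 5.71% of all genes were higher and 6.08% lower. Of 8 blood endothelial markers 5 rose and 0 fell, and their summed level was 289.0 to 318.9 CPM in amputated and 170.2 to 233.2 CPM in unamputated digits at day 7, and 238.5 to 277.2 and 205.1 to 214.7 CPM at day 14. Osteoclast markers rose in 4 of 7 tested and osteoblast markers in 3 of 9, with 0 lower in either list. The osteoblast sum overlapped between groups on both days. It was 1005 to 2179 CPM in amputated and 921.6 to 1758 CPM in unamputated digits at day 7, and 1325 to 8376 and 1191 to 1524 CPM at day 14. Schwann cell markers fell in 5 of 8, and their sum was 147.5 to 254.0 CPM in amputated and 372.4 to 381.1 CPM in unamputated digits at day 7, and 136.0 to 147.7 and 354.9 to 449.3 CPM at day 14. Of 8 keratinocyte markers 1 rose and 2 fell, with a median log2 fold change of -0.02, while their sum, in which the most abundant genes weigh most, came to 47390 to 52860 CPM in amputated and 68250 to 78980 CPM in unamputated digits at day 7, and 53550 to 58330 and 62260 to 64420 CPM at day 14. Of the fibroblast list 1 of 8 rose and 0 fell, which is near the share of all genes, and its sum overlapped between groups on both days. Amputated day 7 replicate 1, which had the highest Igf1, Igfbp4 and Igfbp5, had macrophage markers at 936.7 CPM against 381.0 and 409.8 CPM in the other libraries of its group, and osteoclast markers at 1740 CPM against 408.6 and 339.1 CPM. Without that library the averaged log2 fold change of Igfbp4 was 0.49 (adjusted p = 0.0217) and that of Igfbp2 -0.39 (adjusted p = 0.016). The part of these cell types in the changes of Igfbp4 and Igfbp2 was not tested.

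The time course asks how nerve injury changes the regenerating digit. No gene of the family was called in any contrast between SNI and sham digits, and 0% of all 16084 tested genes were called by edgeR at day 7, at day 14, at day 21, in their average or in the test of a difference between days. Unadjusted p values under 0.05 numbered 2191, 954, 354, 2248 and 588 genes in that order, and DESeq2 called 54, 67, 12, 163 and 3 genes. Of the 10 genes, 1, 2, 1, 3 and 2 had an unadjusted p under 0.05 in the same order, and DESeq2 called 0, 2, 0, 0 and 0. The values that follow are levels and sizes of differences that did not pass.

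**Figure D4:**
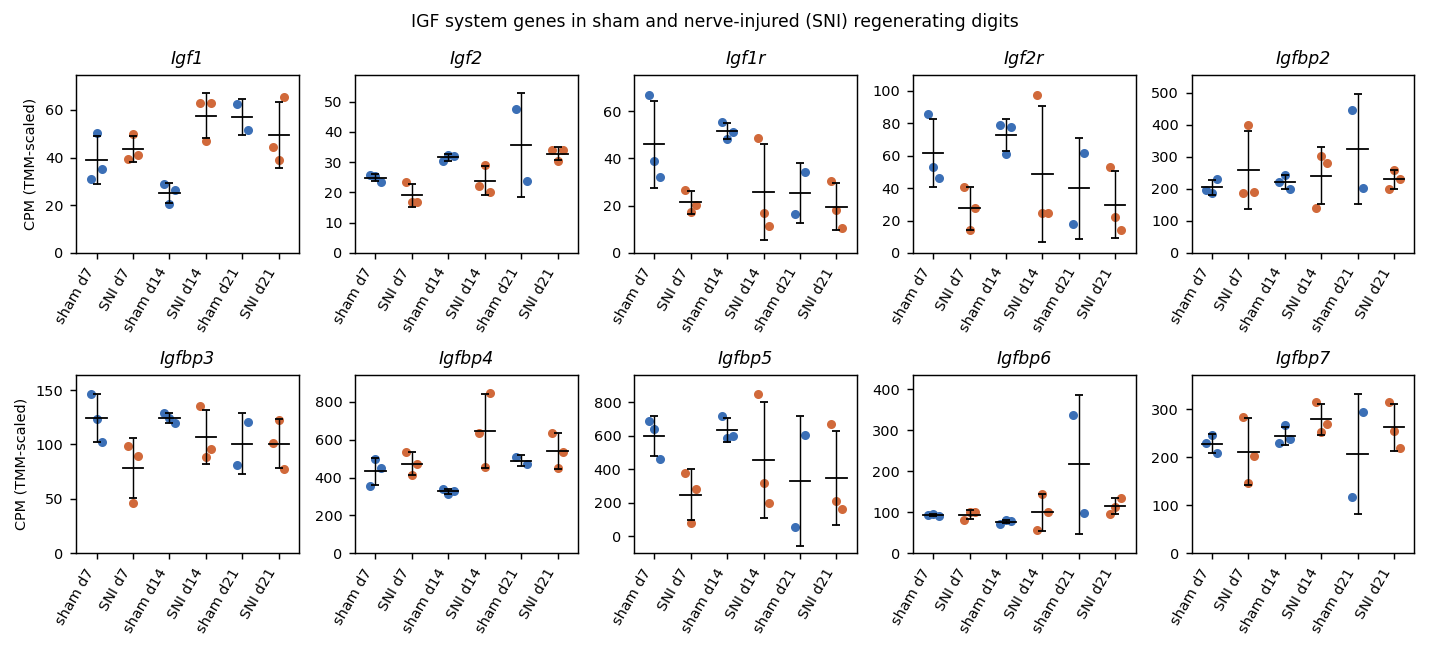
TMM-scaled CPM of each gene in the 17 time course libraries. Points are libraries, lines means and bars SD (n = 3 per group, n = 2 for sham day 21). Igf1 and Igfbp4 are lowest in sham digits at day 14, and the receptors and Igfbp5 spread widely in SNI digits at days 14 and 21 and at sham day 21. Igfbp5 (81.2 to 378.9 CPM) and Igf2r (14.1 to 40.7 CPM) also spread widely at SNI day 7. Igf1r also spreads at sham day 7 (32.0 to 66.9 CPM), more than at SNI day 7 (17.3 to 26.6 CPM).

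Igf1 was at 28.7, 20.7 and 26.3 CPM in sham and 63.0, 46.8 and 63.1 CPM in SNI digits at day 14. These groups did not overlap, and the log2 fold change was 1.19 ± 0.24 (SE), 2.29-fold, with an unadjusted p of 0.000274 and an edgeR adjusted p of 0.555. DESeq2 gave an adjusted p of 0.00578, in a test that called 0.419% of genes. The order of group means was sham day 14 (25.2 CPM), sham day 7 (38.9), SNI day 7 (43.4), SNI day 21 (49.7), sham day 21 (57.0) and SNI day 14 (57.6). Sham day 14 was the only group of the 6 whose libraries all lay below those of the next, and the other neighbours in this order overlapped. The log2 fold change was 0.16 ± 0.24 (SE) at day 7 and -0.20 ± 0.27 at day 21, and the test of a difference between days had an unadjusted p of 0.00438 and an adjusted p of 0.712. Within sham digits Igf1 had a log2 change of -0.63 ± 0.24 (SE) from day 7 to day 14 (adjusted p = 1).

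Igfbp4 had the same order at its low end. It was at 338.3, 313.9 and 328.6 CPM in sham and 635.0, 455.0 and 846.6 CPM in SNI digits at day 14, again with no overlap. The log2 fold change was 0.98 ± 0.23 (SE), 1.98-fold, with an unadjusted p of 0.00087 and adjusted p values of 0.555 by edgeR and 0.0155 by DESeq2. Its group means ran from sham day 14 (326.9 CPM) through sham day 7 (432.7), SNI day 7 (473.7), sham day 21 (488.7) and SNI day 21 (540.8) to SNI day 14 (645.5), and each group but sham day 14 overlapped the next. At day 7 and day 21 its log2 fold change was 0.13 ± 0.23 (SE) and 0.15 ± 0.26. Macrophage markers summed to 270.3 to 302.9 CPM in sham and 491.5 to 1135 CPM in SNI digits at day 14, fibroblast markers to 3416 to 4025 and 3625 to 7361 CPM, and osteoclast markers to 203.2 to 316.5 and 257.7 to 3135 CPM. Neutrophil markers summed to 13.6 to 18.4 CPM in sham and 36.2 to 209.3 CPM in SNI digits at that day. Keratinocyte markers went the other way, with 63560 to 69880 CPM in sham and 40530 to 57230 CPM in SNI digits. The part of these cells in the Igf1 and Igfbp4 levels was not tested.

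Igf2 was at 25.8, 25.4 and 23.6 CPM in sham and 23.5, 17.0 and 16.7 CPM in SNI digits at day 7, with no overlap. At day 14 it was at 30.3, 32.5 and 32.1 CPM in sham and 22.2, 29.2 and 20.0 CPM in SNI digits, also with no overlap, and at day 21 at 47.7 and 23.6 CPM against 34.1, 30.3 and 33.9 CPM. The log2 fold change was -0.39 ± 0.24 (SE) at day 7, -0.41 ± 0.24 at day 14, -0.12 ± 0.26 at day 21 and -0.31 ± 0.14 in the average (adjusted p = 0.358). Within SNI digits Igf2 had a log2 change of 0.78 ± 0.24 (SE) from day 7 to day 21, and every day 21 library was above every day 7 library (unadjusted p = 0.00574, adjusted p = 1).

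The receptors had the largest averaged differences in the family. Igf1r was at 66.9, 38.9 and 32.0 CPM in sham and 26.6, 17.3 and 20.3 CPM in SNI digits at day 7, and at 55.3, 48.3 and 51.2 CPM and 48.8, 16.8 and 11.4 CPM at day 14. At day 21 it was at 16.4 and 34.4 CPM in sham and 30.3, 18.0 and 10.6 CPM in SNI digits. The groups overlapped at days 14 and 21, and the averaged log2 fold change was -0.83 ± 0.31 (SE, adjusted p = 0.337). Igf2r had an averaged log2 fold change of -0.72 ± 0.38 (adjusted p = 0.395), with 85.5, 53.1 and 46.4 CPM in sham and 40.7, 14.1 and 27.6 CPM in SNI digits at day 7. At later days Igf2r ran from 14.0 to 97.4 CPM in SNI and from 17.8 to 79.2 CPM in sham digits, and the groups overlapped.

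Igfbp5 was at 686.9, 640.8 and 460.1 CPM in sham and 378.9, 81.2 and 284.0 CPM in SNI digits at day 7. At day 14 it was at 715.8, 586.1 and 600.3 CPM in sham and 846.9, 315.7 and 196.2 CPM in SNI digits, and at day 21 at 56.4 and 602.6 CPM and 671.5, 209.0 and 159.9 CPM. All SNI libraries were below the sham libraries at day 7, while at days 14 and 21 the groups overlapped, and the averaged log2 fold change was -0.56 ± 0.48 (SE, adjusted p = 0.549). Igfbp3 was at 146.8, 123.7 and 102.1 CPM in sham and 98.5, 46.5 and 89.7 CPM in SNI digits at day 7, where its log2 fold change was -0.67 ± 0.29 (SE, adjusted p = 0.301). Igfbp6 was at 93.4 CPM ± 1.81 (SD, n = 3) in sham digits at day 7, at 76.9 ± 4.43 at day 14, with every library below those of day 7 (log2 change -0.28 ± 0.38 SE, edgeR adjusted p = 1), and at 336.1 and 97.1 CPM at day 21. The averaged log2 fold changes of Igfbp2, Igfbp3, Igfbp6 and Igfbp7 lay between -0.29 and 0.14, with adjusted p values from 0.418 to 0.982.

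At day 7, 5 of the 10 genes had no overlap between SNI and sham libraries, all lower in SNI (Igf2, Igf1r, Igf2r, Igfbp3 and Igfbp5), against 37.4% of all genes. At day 14 there were 3 (Igf1 and Igfbp4 higher, Igf2 lower) against 23.3%. The median averaged log2 fold change of the family was -0.24 against 0.01 for all genes. Stc2, the gene of the pathway list that rose most with amputation, had an averaged log2 fold change of 0.59 ± 0.12 (SE) between SNI and sham digits, with an unadjusted p of 0.000285 and an edgeR adjusted p of 0.288.

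Over time, 0 of 10 genes were called by edgeR from day 7 to 14 or 21 in sham digits, or between any of the 3 days in SNI digits, and 0% of all genes were called in each of these 5 contrasts. Unadjusted p values under 0.05 numbered 315 (sham day 14 against 7), 3259 (sham day 21 against 7), 487 (SNI day 14 against 7), 623 (SNI day 21 against 7) and 171 genes (SNI day 21 against 14), and DESeq2 called 3, 41, 1, 9 and 7. Of the 10 genes 1, 1, 0, 1 and 0 had an unadjusted p under 0.05, and DESeq2 called 0 in each. The sham day 21 group had 2 libraries that differed. With replicate 1 (TMM factor 0.633) as its only library, 5 of 10 genes were called from day 7 to 21, against 50.7% of all genes.

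The spread of the receptors and of Igfbp5 went with the balance of long and short transcripts in each library. Each gene's log2 CPM was set against its mean over the table, and the balance of long and short transcripts was the median of the 20% of coding genes with the longest transcripts minus that of the 20% with the shortest. It ran from -2.27 to 1.27 in sham libraries (median 0.77, n = 8) and from -1.82 to 1.07 in SNI libraries (median -0.43, n = 9). The lowest values belonged to sham day 21 replicate 1 and SNI day 7 replicate 2. Igfbp5, Igf2r, Igf1r and Igf1 are themselves in the long class (at least 5096 bases). Igfbp2, Igfbp6 and Igfbp7 are in the short class (at most 1783 bases). A typical gene of either class moves with the balance by construction, so the p values below are no independent support for these genes. The share of all genes with as strong a relation is not given. Across the 17 libraries the log2 CPM of Igfbp5 (transcript of 6006 bases) had a Pearson r of 0.98 and a Spearman rho of 0.94 with this balance (permutation p adjusted over 20 relations 0.0001 and 5e-05). For Igf2r (8887 bases) r was 0.95 and rho 0.98 (0.0001 and 5e-05), and for Igf1r (11409 bases) r was 0.88 and rho 0.96 (0.00015 and 5e-05). Without the 2 libraries farthest from the median, r was 0.97, 0.99 and 0.98 for these genes. The permutations ignored group, so their p does not tell a relation within groups from one between them.

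**Figure D5:**
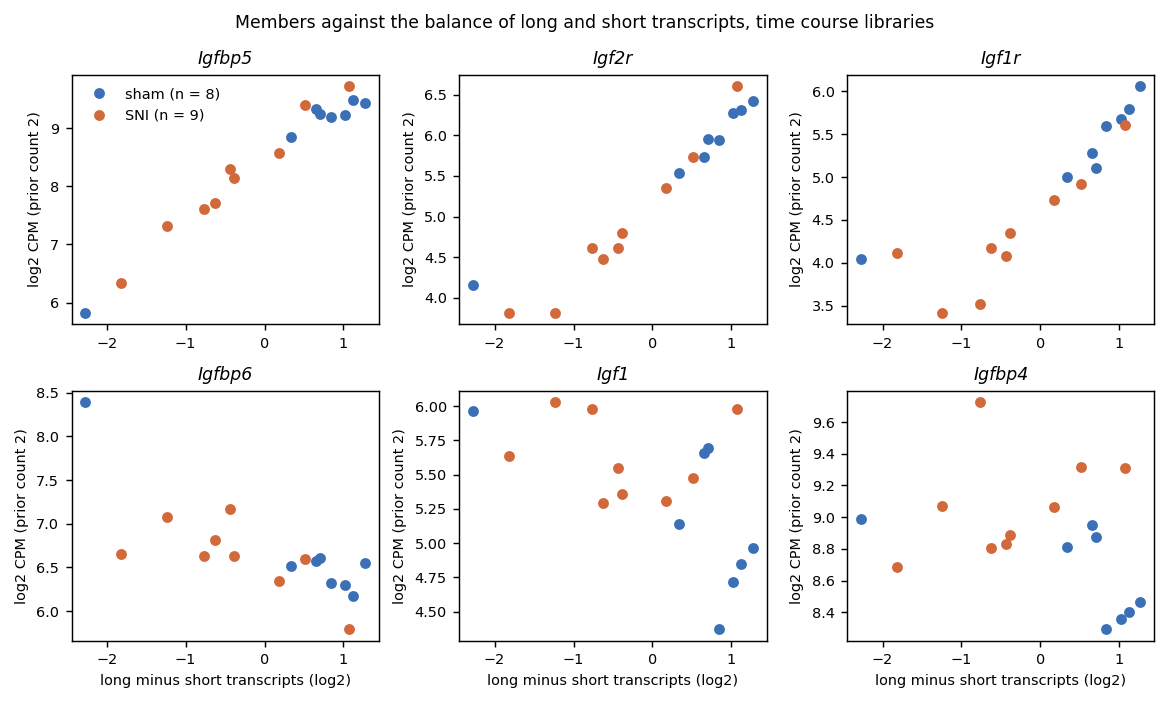
Log2 CPM (prior count 2) of 6 genes against the balance of long and short transcripts in the 17 time course libraries, coloured by surgery. Igfbp5, Igf2r and Igf1r rise along the balance (r of 0.98, 0.95 and 0.88), Igfbp6 falls (-0.77), and all but 1 sham library have a balance above 0.

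Igfbp3 (2421 bases), whose transcript is shorter, also rose with the balance, with an r of 0.83 and a rho of 0.88 (adjusted permutation p = 0.000133 and 5e-05), or an r of 0.82 without those 2 libraries. Of the 3 genes with the shortest transcripts, Igfbp6 and Igfbp2 went the other way. Igfbp6 (1112 bases) had an r of -0.77 and a rho of -0.84 (adjusted permutation p = 0.0005 and 0.00028), and Igfbp2 (1307 bases) an r of -0.81 and a rho of -0.65 (0.0004 and 0.0202). Without those 2 libraries r was -0.74 for Igfbp6 and -0.56 for Igfbp2. Igfbp7 (1200 bases), the third, had an r of 0.71 and a rho of 0.38 (adjusted permutation p = 0.00566 and 0.22), and an r of 0.24 without those libraries. Igf1, which has a long transcript (7052 bases), ran against the receptors and Igfbp5, with an r of -0.57 and a rho of -0.54 (adjusted permutation p = 0.0396 and 0.0685). Igfbp4 had an r of -0.32 and a rho of -0.39 (0.321 and 0.22), and Igf2 an r of -0.07 and a rho of 0.02 (0.836 and 0.951). Without those libraries r was -0.49 for Igfbp4 and 0.10 for Igf2. As deviations from group means, r was 0.99 for Igfbp5, 0.96 for Igf2r, 0.90 for Igfbp7, 0.86 for Igf1r, 0.81 for Igfbp3 and 0.08 for Igfbp4, against -0.89 for Igfbp2, -0.83 for Igfbp6, -0.36 for Igf2 and -0.35 for Igf1.

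With the balance as a covariate in the fit, the averaged SNI difference was -0.47 for Igf1r, -0.24 for Igf2r and 0.25 for Igfbp5 on the log2 scale (adjusted p = 0.116, 0.245 and 0.141), so Igfbp5 had the opposite sign. These genes are in the long class that defines the covariate, and the balance itself differed between sham and SNI libraries. The fit therefore cannot tell a difference with SNI from the balance, and the sign for Igfbp5 is not read further. The day 14 differences of Igf1 (1.09) and Igfbp4 (1.00) changed little (adjusted p = 0.121 and 0.129). In the amputation libraries the balance was narrower, -0.45 to 0.08 in amputated (median -0.09, n = 6) and -0.02 to 0.14 in unamputated digits (median 0.12, n = 6). There Igfbp4 had an r of -0.50 and a rho of -0.73 with it over 12 libraries (adjusted permutation p = 0.189 and 0.025), and -0.09 as deviations from group means.

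The genes whose log2 CPM followed these members most closely are given as a description, since libraries share group, depth and composition. Over the 12 amputation libraries, Igfbp4 was followed by Cygb, the globin cytoglobin (r = 0.97), and Cd300c2 (0.96). Igf1 was followed by Bdh2 (0.90), Aif1, a macrophage gene (0.88), and B4galt6 (0.84). Igf2 was followed by Vipr2 (0.82), Cnp (0.81) and Diras2 (0.78). Over the 17 time course libraries the nearest genes were AW551984 (0.90), Efemp2 (0.89) and C2 (0.85) for Igfbp4, AA414768 (0.83), Tmem47 (0.82) and Olfml1 (0.82) for Igf1, and Selenbp1 (0.82), Dync1i1 (0.81) and Dlx1as (0.80) for Igf2. None of the genes named here was among the 3 nearest to the same member in both experiments.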

How the data were processed

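Raw counts per gene and library were deposited by the authors in 2 tables. Libraries were poly(A)-selected and strand-specific per the labels' protocols. The genome build was GRCm39 per the submitters' processing notes, while aligner, counter and annotation were not given in the sources used here. If strand was not used in counting, reads of Igfbp7 and Polr2b, of Igf2r and Airn, and of Igf1 or Igf2 and their antisense genes cannot be told apart. GENCODE M21 (GRCm38) gave symbols for 55141 of 55487 identifiers (99.38%) and transcript lengths (longest coding transcript). Promoters came from RefSeq (GRCm38.p6).

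Each table was fitted apart with a mean per group: filterByExpr (minimum count 10, minimum total 15), TMM and the robust quasi-likelihood test of edgeR 4.0.16 in R 4.3.3, Benjamini-Hochberg adjusted over all tested genes. Fold changes and SE are on the log2 scale of that fit, and averages weight days equally. Tested genes numbered 16084 and 17475. Alternatives were other scaling factors, no filter, DESeq2 1.42.0, the compared groups alone, a replicate block, each library left out, and, for the time course, a fit that left out the pair of libraries whose TMM factor was under 0.8. The transcript-length covariate was added after seeing the data. The fits were tested on simulated data. Correlations used 100000 permutations of all libraries of an experiment regardless of group (two-sided, SciPy 1.17.1), with a smallest possible p of 1e-05. No 2 libraries of the same group agreed within sampling noise, and pairs across groups were not compared in this way.

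The genes and lists were chosen with earlier results of these data known. All 10 genes are described. Of the pathway list, genes called in a described contrast were to be named, others added as their roles required after their values were seen. Marker lists are given by sums and counts, and nearest genes needed a mean CPM of at least 1. A gene that met the rule for nearest genes is not reported here.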

Additional observations from a re-analysis of the deposited data

How the results depend on the processing

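Of 3600 values of the 10 genes under alternatives, 3568 kept their side of the threshold, 16 lost a call and 16 gained one. No called change reversed, while 188 uncalled values had another sign than in the fit reported. The averaged amputation contrast gave 1 called gene with no filter on low counts, and 1 to 4 with 1 library left out: 1 without unamputated day 7 replicate 1, and 4, with Igfbp3 and Igfbp6 added, without amputated day 14 replicate 2. At day 7 the count of 1 became 0 with library totals alone, 0 with the compared groups alone, 2 by DESeq2, and 0 to 1 with 1 library left out. At day 14 the count of 0 became 1 by DESeq2 and 0 to 1 with 1 library left out, with Igfbp4 called without amputated day 7 replicate 1. The share of all genes called in these amputation alternatives is not given, so the counts do not show a change particular to the family. In the time course DESeq2 called 2 genes at day 14 between SNI and sham. Without sham day 21 replicate 2 the test of a difference between days called 2 genes (3384 of all genes) and sham day 21 against day 7 called 5, and other libraries left out gave 0. The lone library is then taken to vary as the others do. The cause of these changes was not tested.

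Replicate numbers were not taken to pair samples: same-numbered libraries had correlations of their deviations from -0.787 to 0.773 in the time course and from -0.203 to 0.143 in the amputation libraries. Differently numbered time course libraries had -0.747 to 0.787. Replicate 1 of sham day 7 and of SNI days 7, 14 and 21 had 0.387 to 0.773 with one another. Each had the highest balance of long and short transcripts in its group. Sham day 21 replicate 1 had -0.787 to -0.541 with them. The cause of this pattern was not tested. With the replicate block, 2 genes were called in the averaged amputation contrast, 0 at day 7 and 0 in each time course contrast, and calls over all genes in the averaged amputation contrast went from 2060 to 1114. In the averaged amputation contrast the covariate for transcript length called 2 genes, Igfbp2 and Igfbp6, with 169 over all genes. Precision differed between the experiments: the SE of the log2 fold change of Igf1r at day 7 was 0.52 in the time course and 0.10 in the amputation experiment.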
